A study of Mus musculus with 12 samples.

Results

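The genes described here are 10 core genes of the circadian clock: Arntl (also called Bmal1), Clock, Npas2, Per1, Per2, Cry1, Nr1d1, Nr1d2, Dbp and Ciart. They were taken by name from the 16346 genes listed for mouse liver, and all 10 were found. Of these, 9 had a mean normalized count of at least 10 and were among the 12366 genes tested, while Npas2, with a mean of 4.73, was described but not tested.

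The circadian clock is a feedback loop of transcription that runs in most cells, hepatocytes included. ARNTL pairs with CLOCK or NPAS2 on E-box sequences and switches on the Per and Cry genes, whose proteins return to the nucleus and inhibit that pair. The same pair switches on Nr1d1 and Nr1d2, which encode the REV-ERB repressors of Arntl, and Dbp, a transcription factor that carries the rhythm to output genes. In liver, meal timing resets this loop, and the genes peak at different times of day.

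Liver RNA was sequenced from C57BL6J mice aged 12 weeks, in 6 groups of 2 mice. Control mice carried the floxed Med13 allele (Med13fl/fl). MED13-LKO mice carried it together with Alb-Cre, to remove MED13 selectively from hepatocytes. In each genotype, 2 mice were fasted overnight for 16 h, 2 were fed normal chow for 4 h with 30% sucrose in the drinking water, and 2 were fed chow for 4 h with 30% fructose. All mice had been trained beforehand to eat during the day, and the fasted mice were killed in the late morning and the fed mice in the early afternoon, so feeding and time of day cannot be told apart in any value below.

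Normalized counts summed to between 17309215 and 24152885 per library, all 6 sums of libraries labelled MED13-LKO being below those of the control libraries. The low values put the reads counted on genes at 16110725 to 24207105. Med13 RNA ranged from 578 to 796 in control livers and from 646 to 1055 in those labelled MED13-LKO (log2 fold change 0.22, adjusted p = 0.201 from limma). A value summed over a gene cannot reveal a lost exon, so the labels were not checked by this gene. All 6 hepatocyte markers were present in every library. Their summed level was 2272382 to 3001801 in control libraries and 1686833 to 2079518 in those labelled MED13-LKO, without overlap, and 5 of the 6 were called lower (Alb -0.45 and Cps1 -0.69 on the log2 scale). The sums for 6 Kupffer cell markers were 3528 to 4861 and 4450 to 5836, for 6 markers of sinusoidal endothelium 3464 to 4115 and 3956 to 5485, and for 5 lymphocyte markers 175 to 258 and 218 to 335. Those for 5 stellate cell markers were 4941 to 6099 and 4540 to 5340, and those for 3 cholangiocyte markers 72.5 to 154 and 75.3 to 149. Of the lymphocyte markers only Ptprc (mean 223) averaged at least 10, so that sum is mostly Ptprc.

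The E-box, CACGTG on either strand, is the site that the ARNTL pair reads. It was searched in the 250 bases before and 50 bases after each start site listed by RefSeq on GRCm38.p6, which held 9 of the 10 genes (not Per2). It was found for 3 of these 9, Ciart, Cry1 and Per1, against 8.09% of the 27025 genes and 7.15% of the 32851 windows searched. With the variant CACGTT also allowed, Nr1d1 was added, and the shares were 13% of genes and 11.4% of windows. The stretches that hold the exact E-boxes are shown because Ciart and Per1 were called lower with feeding and Cry1 was not called. They are read 5′ to 3′ on the gene's strand, with the E-box in capitals.
Ciart, chr3:95882253-95882356, minus strand: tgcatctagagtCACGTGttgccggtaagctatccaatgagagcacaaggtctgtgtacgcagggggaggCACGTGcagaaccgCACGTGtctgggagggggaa
Cry1, chr10:85185095-85185126, minus strand: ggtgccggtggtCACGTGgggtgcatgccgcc
Per1, chr11:69098771-69098802, plus strand: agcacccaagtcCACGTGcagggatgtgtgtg
The 3 Ciart E-boxes begin at -116, -58 and -44 from the start site, the Cry1 E-box at -60 and the Per1 E-box at -166. The ROR element TAGGTCA, read by the REV-ERB proteins and their activating counterparts, was found for Arntl at position 30 after the start and for none of the other 8 genes, against 2.97% of genes and 2.61% of windows. The D-box TTATGTAA, which DBP reads, and the cAMP element TGACGTCA were found for none of the 9, against 1.11% and 2.03% of genes and 0.938% and 1.79% of windows. A match describes these letters only.

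Feeding was compared with fasting first, averaged over both sugars and both genotypes, to ask which clock genes differed between the fasted and the fed liver. The genes called lower in fed mice were Ciart, Per1, Dbp, Nr1d2 and Nr1d1. They encode repressors or outputs of the loop, as do all the genes tested except Arntl and Clock. Per2, also a repressor gene, was higher. Arntl, Clock and the repressor gene Cry1 were not called. In all, 6 of 9 genes were called (1 higher, 5 lower), where 21.8% of all genes tested were called and 11% were called lower. The median log2 fold change was -0.57 over the 9 genes and -0.01 over all genes tested. A gene is called here when its Benjamini-Hochberg adjusted p from limma, over all genes tested, was under 0.05. Log2 fold changes are differences of log2(normalized count + 1). The hepatocyte markers summed to 2077366 to 3001801 in fasted and 1686833 to 2565556 in fed mice, with 2 of 6 called lower (Tat and Cps1). Of 6 endothelial markers, Clec4g (-0.37) and Oit3 (-0.40) were called lower, and of 5 stellate cell markers Reln (-0.23) was called lower and Col1a1 (0.50) higher. The part of these cells in the feeding differences was not tested.

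**Figure D1:**
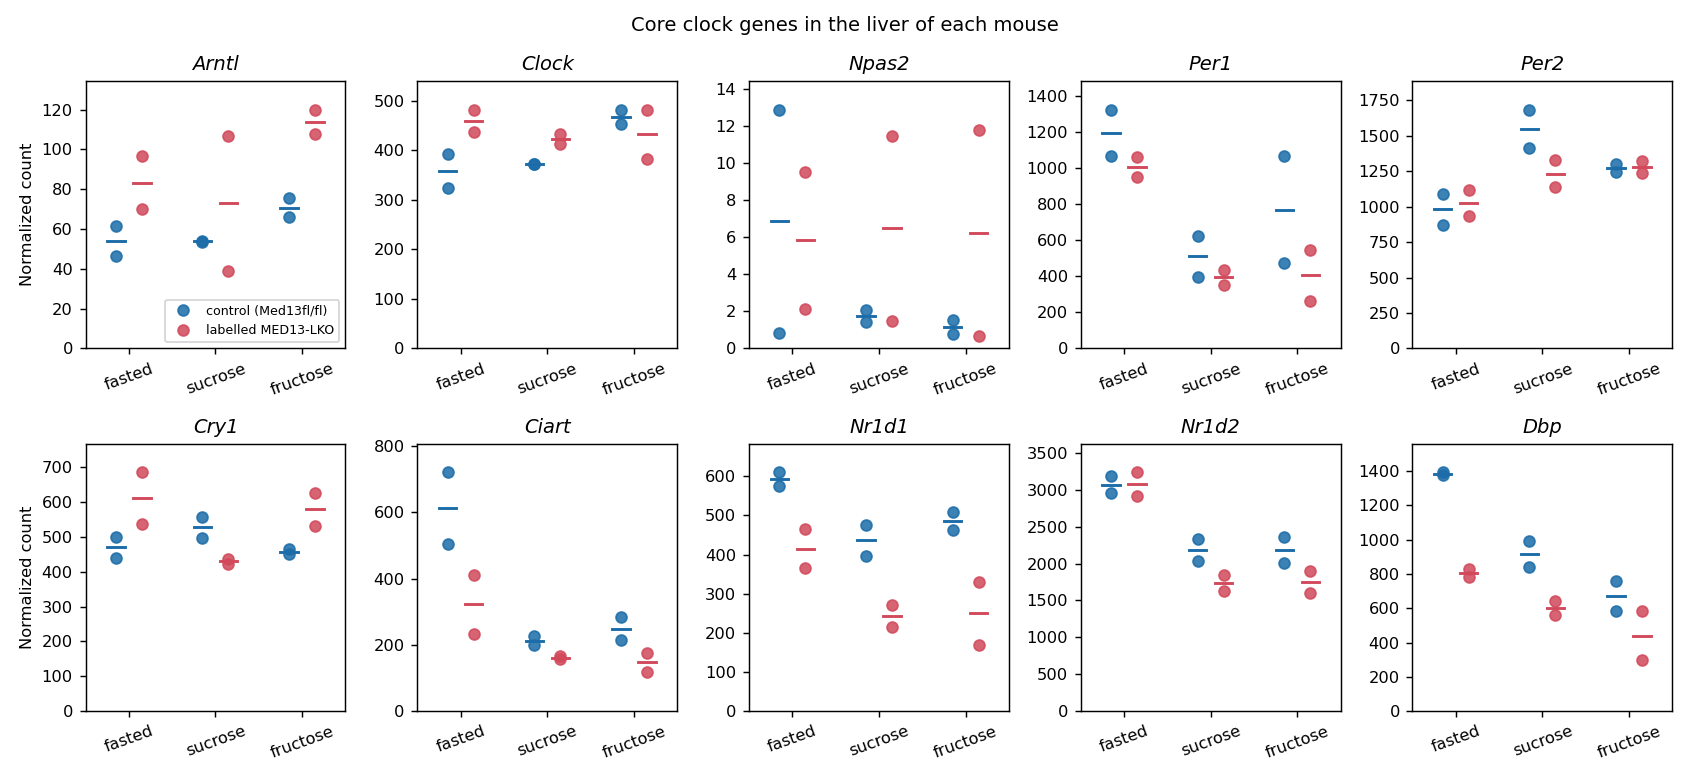
Normalized counts of the 10 clock genes in each of the 12 livers, by diet (x axis) and genotype (colour). Each point is 1 mouse and each bar the mean of 2 mice, on a linear axis from 0 in every panel. Fasted mice sit above the fed mice of their genotype for Per1, Ciart, Nr1d1, Nr1d2 and Dbp, and below them for Per2.

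Nr1d2, 1 of the 2 REV-ERB repressors, separated the fed from the fasted mice completely. It stood at 2960 and 3180 normalized counts in fasted control mice, 2031 and 2327 on sucrose, and 2014 and 2355 on fructose. The mice labelled MED13-LKO had 2919 and 3235 when fasted, 1842 and 1625 on sucrose, and 1900 and 1597 on fructose. All 4 fasted mice lay above all 8 fed mice. The gene fell by 0.66 on the log2 scale with feeding (SE 0.0743, 1.58-fold, adjusted p = 0.000316 from limma).

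Nr1d1, the other REV-ERB gene, was at 576 and 610 in fasted control mice, 397 and 475 on sucrose, and 463 and 509 on fructose. The corresponding values under the MED13-LKO label were 466 and 365, 272 and 216, and 331 and 169. Within each genotype both fasted mice lay above the 4 fed mice, while the fasted mice labelled MED13-LKO overlapped the fed control mice. Nr1d1 fell by 0.57 with feeding (SE 0.163, 1.49-fold, limma adjusted p = 0.0307). That call disappeared without any 1 of 6 mice (either fasted control, sucrose control replicate 1, either fasted MED13-LKO or sucrose MED13-LKO replicate 2), with adjusted p from 0.0508 to 0.121, and after rescaling to equal totals (adjusted p = 0.0624).

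Among the period genes, Per1 and Per2 moved in opposite directions. Per1 also responds quickly to hormonal signals such as glucocorticoids. It was at 1069 and 1326 in fasted control mice, 397 and 627 on sucrose, and 476 and 1066 on fructose. Mice labelled MED13-LKO had 954 and 1062 when fasted, 438 and 354 on sucrose, and 548 and 266 on fructose. The fed mice were lower within each genotype, but 1 fructose-fed control mouse, at 1066, reached the fasted range. Per1 fell by 1.18 with feeding (SE 0.245, 2.27-fold, adjusted p = 0.00767 from limma).

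Per2 was at 1090 and 873 in fasted control mice, 1683 and 1412 on sucrose, and 1242 and 1303 on fructose. Under the MED13-LKO label the same groups had 1119 and 935, 1135 and 1330, and 1240 and 1323. All 8 fed mice lay above all 4 fasted mice, by a narrow margin between 1119 and 1135. Per2 rose by 0.41 with feeding (SE 0.0855, 1.33-fold, adjusted p = 0.00827 from limma).

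Ciart encodes a repressor that binds ARNTL, and its start site carries the 3 E-boxes shown above. It was at 505 and 721 in fasted control mice, 199 and 226 on sucrose, and 214 and 283 on fructose. The mice labelled MED13-LKO had 412 and 233 when fasted, 157 and 166 on sucrose, and 175 and 119 on fructose. Within each genotype the fasted mice lay above the fed mice, though the lower fasted mouse labelled MED13-LKO (233) fell inside the range of the fed control mice. Ciart fell by 1.21 with feeding (SE 0.176, 2.31-fold, adjusted p = 0.00133 from limma).

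Dbp, the output factor, was at 1392 and 1377 in fasted control mice, 843 and 990 on sucrose, and 586 and 761 on fructose. Fasted mice labelled MED13-LKO had 830 and 783, those on sucrose 640 and 563, and those on fructose 581 and 296. Those fasted mice were thus in the range of the fed control mice. Dbp fell by 0.76 with feeding (SE 0.155, 1.69-fold, adjusted p = 0.00741 from limma).

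The 3 remaining genes tested did not pass. Cry1, the cryptochrome that pairs with the period proteins, was at 440 and 499, 557 and 497, and 450 and 464 in fasted, sucrose-fed and fructose-fed control mice. The same groups labelled MED13-LKO had 685 and 538, 423 and 437, and 531 and 627. The diets overlapped, and the difference with feeding was -0.11 on the log2 scale (95% interval -0.30 to 0.08, adjusted p = 0.378 from limma), or 0.00 after rescaling to equal totals.

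Arntl, the activator, was at 46.5 and 61.5, 54 and 53.6, and 66 and 75.4 in fasted, sucrose-fed and fructose-fed control mice. It was at 70.2 and 96.5, 38.8 and 107, and 108 and 120 in mice labelled MED13-LKO. The sucrose pair labelled MED13-LKO spanned nearly the whole range of the gene, a difference of 1.43 on the log2 scale between 2 mice. The difference with feeding was 0.13 (95% interval -0.40 to 0.66, adjusted p = 0.737 from limma).

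Clock, the partner of ARNTL, was at 393 and 324, 372 and 373, and 454 and 482 in the control groups, and at 437 and 482, 433 and 412, and 383 and 481 in mice labelled MED13-LKO. The fed mice as a whole (372 to 482) overlapped the fasted mice (324 to 482), and the difference with feeding was 0.06 (95% interval -0.13 to 0.24, adjusted p = 0.655 from limma). Npas2, the alternative partner, ranged from 0.683 to 12.9. In 4 of the 6 groups, fasted control and all 3 labelled MED13-LKO, 1 mouse was at 9.54 to 12.9 and the other at 0.683 to 2.15, so no difference between groups was read from it.

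Fed and fasted mice did not overlap in the same direction within both genotypes for 6 of the 9 genes (5 lower, 1 higher), against 16.1% of all genes tested. Over both genotypes at once this held for 2 of 9, Nr1d2 and Per2, against 8.8%. Within control mice Per1 was separated by a narrow margin only, between 1066 fed and 1069 fasted.

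Each sugar was then compared with fasting within each genotype, where 2 mice face 2. In control mice, sucrose called 3 of 9 genes, against 8.57% of all genes: Ciart (-1.50) and Nr1d2 (-0.50) fell and Per2 rose by 0.66 (adjusted p = 0.0125, 0.0338 and 0.0192 from limma). Fructose called 3 of 9 in control mice, against 5.6%: Ciart (-1.29), Dbp (-1.05) and Nr1d2 (-0.49) fell (adjusted p = 0.0328, 0.0424 and 0.0445). In mice labelled MED13-LKO the single gene called was Nr1d2, which fell by 0.83 with sucrose, against 5.71% of all genes, and fell by 0.82 with fructose, against 6.53% (adjusted p = 0.0051 and 0.00644). With fructose Ciart (-1.10) and Dbp (-0.96) had adjusted p = 0.0506 and 0.0523 in these mice, and 6 of 9 genes had an unadjusted p under 0.05, against 5 of 9 in control mice. Whether the sugars acted differently in the genotypes is not shown by these calls. The 2 sugars share their fasted mice within each genotype.

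These single comparisons rested on few mice. Without fasted control replicate 2 or sucrose control replicate 1, no clock gene was called for sucrose in control mice (Ciart at adjusted p = 0.103 and 0.086, Per2 at 0.141 and 0.133, Nr1d2 at 0.186 in both). Nr1d2 was also lost without the other mouse of either group (0.0923 and 0.0576). For fructose in control mice, Dbp and Nr1d2 kept their calls without fructose control replicate 2 or either fructose MED13-LKO mouse, and lost them without any other mouse, with adjusted p up to 0.179 and 0.228. Ciart lost its call there without either fasted control mouse, fructose control replicate 1 or either sucrose MED13-LKO mouse (0.0536 to 0.203). In mice labelled MED13-LKO, Nr1d2 was not called for sucrose without sucrose replicate 2 (0.0575), nor for fructose without fasted replicate 2 (0.0525) or fructose replicate 2 (0.0708). For fructose in these mice the count rose to 5 genes without fructose MED13-LKO replicate 1 and to 4 without either fructose control mouse.

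Fructose was compared with sucrose directly, averaged over genotypes. The test (limma) called 0 of 9 clock genes, against 0.0404% of all genes, and 1 had an unadjusted p under 0.05. That gene was Dbp, lower with fructose by -0.49 (95% interval -0.89 to -0.09, adjusted p = 0.452). Arntl differed by 0.60 (95% interval -0.02 to 1.22, adjusted p = 0.532), and the estimates of the other 7 genes lay between -0.11 and 0.23.

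**Figure D2:**
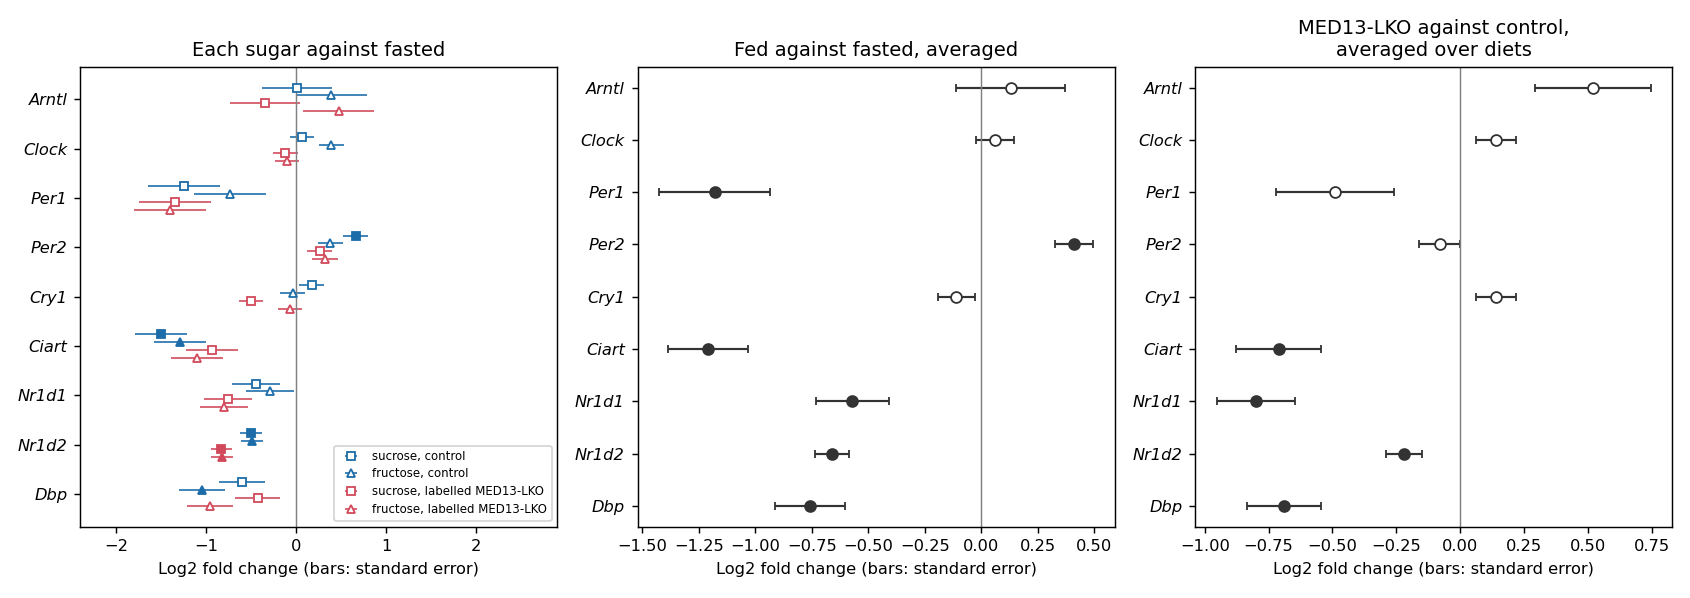
Log2 fold changes of the 9 clock genes tested, with standard errors, for each sugar against fasting within each genotype (left), for fed against fasted mice averaged over sugars and genotypes (middle) and for mice labelled MED13-LKO against control averaged over diets (right). Filled symbols passed an adjusted p of 0.05. In fed mice, which were also killed later in the day, 5 genes were called lower and Per2 higher. The genotype panel has Ciart, Nr1d1, Dbp and Nr1d2 called to the left of 0. Of these, Nr1d2 moves to 0.10 when libraries are rescaled to equal totals.

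The genotypes were compared to ask whether the clock genes differed in mice labelled MED13-LKO. Averaged over the 3 diets, Nr1d1, Ciart, Dbp and Nr1d2 were lower in these libraries, and none of the 9 was called higher. These 4 of 9 stand against 25.3% of all genes called and 13.2% called lower. The median log2 fold change was -0.22 over the 9 genes and 0.01 over all genes tested. In bulk liver, fewer cells of a type and less RNA per cell cannot be told apart. The hepatocyte markers moved the same way as these 4 genes, and their part in the result was not tested.

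Nr1d1 was the gene with the largest difference, lower by -0.80 on the log2 scale (SE 0.153, 1.74-fold, adjusted p = 0.00451 from limma). Ciart was lower by -0.71 (SE 0.166, 1.63-fold, adjusted p = 0.0121) and Dbp by -0.69 (SE 0.146, 1.61-fold, adjusted p = 0.00729). In each of the 3 diets, both mice labelled MED13-LKO lay below both control mice for these 3 genes, which 18.1% of all genes tested did in one direction or the other. Across diets the genotypes overlapped for 9 of 9 genes, where 8.85% of all genes did not overlap.

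Nr1d2 was lower by -0.22 (SE 0.07, 1.16-fold, adjusted p = 0.0467 from limma). That call was lost without the filter on low values (0.054) and with a block for replicate number (0.0606). Rescaling to equal 75th percentiles (0.0636) or equal totals (0.268) ended it too. The fasted mice of both genotypes were alike in range (2960 and 3180 against 2919 and 3235), and the fed mice labelled MED13-LKO lay below the fed control mice. Its call held only without sucrose control replicate 1, fructose control replicate 1 or fructose MED13-LKO replicate 1, and was lost without any 1 of the other 9 mice, with adjusted p from 0.0529 to 0.122. The calls of Nr1d1, Ciart and Dbp held without any 1 of the 12 mice.

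Arntl was higher in the libraries labelled MED13-LKO by 0.52 (95% interval 0.01 to 1.02), which did not pass the correction (adjusted p = 0.125 from limma). Both of these mice lay above both control mice in the fasted and the fructose-fed groups, and the sucrose group overlapped. Per1 differed by -0.49 (95% interval -1.01 to 0.02, adjusted p = 0.15), Clock and Cry1 by 0.14 each (adjusted p = 0.223 and 0.23) and Per2 by -0.08 (adjusted p = 0.497).

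The scale of the libraries bears on these differences, since the deposited values sum to less in libraries labelled MED13-LKO. When every library was rescaled to the same total, the median of all genes moved to 0.32 and 60.7% of all genes were called, 7121 higher and 405 lower in place of 1493 and 1634. On that scale 5 of the 9 clock genes were called, 4 higher and 1 lower. Nr1d1 stayed lower at -0.48 (adjusted p = 0.0214 from limma), Dbp was at -0.37 (0.0519) and Ciart at -0.39 (0.0622), and Nr1d2 turned to 0.10 (0.268). Arntl was called higher at 0.83 (0.009), Clock and Cry1 at 0.46 each (0.00173 and 0.0012), and Per2 at 0.23 (0.0404). Set against the median of 0.32, Arntl, Clock and Cry1 stayed above it and Per1, Per2, Nr1d1, Nr1d2, Dbp and Ciart below it. For feeding the same rescaling moved the median of all genes to 0.10, with 2359 genes higher and 712 lower in place of 1326 and 1365. With equal 75th percentiles instead, the genotype median of all genes was 0.03, with 1651 genes higher and 1436 lower. Nr1d1, Ciart and Dbp kept their genotype calls there, and Nr1d2 lost its call at -0.20 (adjusted p = 0.0636 from limma).

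The ratio of Dbp to Arntl within a library does not depend on how the libraries are scaled. It was chosen after the values were seen and is given as a description. The ratio was 29.9 and 22.4 in fasted control mice, 15.6 and 18.5 on sucrose, and 8.87 and 10.1 on fructose. The same groups labelled MED13-LKO had ratios of 11.8 and 8.11, 16.5 and 5.29, and 5.36 and 2.47. Both fructose-fed mice labelled MED13-LKO lay below every control mouse, as did fasted replicate 2 (8.11) and sucrose replicate 2 (5.29) of that label. The sucrose-fed pair spanned most of the range of the genotype.

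Within single diets, where 2 mice face 2, the test called few genes. In fasted mice limma called 0 of 9, against 8.98% of all genes, and 4 had an unadjusted p under 0.05: Ciart at -0.96, Dbp at -0.78, Cry1 at 0.37 and Clock at 0.36. With sucrose it called 0 of 9, against 6.03%, and 4 had an unadjusted p under 0.05: Nr1d1 at -0.84, Dbp at -0.61, Nr1d2 at -0.33 and Per2 at -0.33. With fructose it called 1 of 9, against 7.69%: Nr1d1 at -1.03 (SE 0.265, adjusted p = 0.0438). That call held only without fructose MED13-LKO replicate 1, and the adjusted p without any other mouse was 0.0554 to 0.203.

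Whether the feeding response differed between genotypes was tested as an interaction, averaged over sugars. By limma 0 of the 9 clock genes were called, against 0.0404% of all genes, and 0 had an unadjusted p under 0.05. The intervals were wide. For Nr1d2 the response in mice labelled MED13-LKO differed by -0.33 (95% interval -0.66 to 0.00, unadjusted p = 0.0516 from limma), for Cry1 by -0.35 (-0.72 to 0.02) and for Clock by -0.33 (-0.70 to 0.04). For Per1 the interval ran from -1.47 to 0.71, for Arntl from -1.21 to 0.92 and for Nr1d1 from -1.14 to 0.31. That of Ciart ran from -0.41 to 1.16, that of Dbp from -0.56 to 0.83 and that of Per2 from -0.61 to 0.15.

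The 2 mice of a group also differed from each other, by more for some clock genes than for others. The median difference between the mice of a group was 0.48 on the log2 scale for Per1 and 0.46 for Ciart, and 0.11 for Clock, 0.17 for Cry1 and 0.19 for Nr1d2. The widest pairs among the 9 genes tested were Arntl in the sucrose group labelled MED13-LKO (1.43), Per1 in the fructose control group (1.16), and Per1 (-1.04, replicate 2 minus replicate 1), Dbp (-0.97) and Nr1d1 (-0.96) in the fructose group labelled MED13-LKO. Per1 and Nr1d2 differed in the same direction in 6 of 6 groups. Nr1d1 did so with Per1, Nr1d2, Dbp and Ciart in 5 of 6 each, and Cry1 with Per2 and Arntl in 5 of 6 each. Arntl with Dbp, Per1 with Per2, and Per2 with Nr1d2 did so in 1 of 6 groups each. The gene pairs named have the highest and lowest counts among all pairs of the 9 genes tested, and were picked for that. These are counts over 6 pairs of mice from the same 12 libraries and carry no test.

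The genes whose levels followed Arntl and Dbp most closely over the 12 libraries were listed by Pearson correlation of log2(normalized count + 1), outside the clock lists. For Arntl they were Gm5431 (0.882), Wdr76 (0.881), Ubxn2b (0.867), Pank2 (0.837) and Rec8 (0.828). For Dbp they were Enpp3 (0.959), Ndufb9 (0.954), Mettl7a1 (0.95), Nt5dc1 (0.949) and Car8 (0.945). The points share diet, genotype and library scale, so no p is given.

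The neighbours of the loop were described from a list of 14 other clock genes, all tested. With feeding 5 of the 14 were called, 2 higher and 3 lower, against 21.8% of all genes, with a median over the list of 0.01. Bhlhe40, a repressor that competes for E-boxes, was at 1264 to 1939 in fasted mice and 2646 to 4038 in fed mice and rose by 1.18 (SE 0.0928, adjusted p = 4.77e-05 from limma). Timeless rose by 1.15 (adjusted p = 0.00061). Rora, which encodes an activating counterpart of the REV-ERB proteins at ROR elements, fell by 0.66 (adjusted p = 0.00107). Nfil3, a repressor at D-boxes, fell by 0.66 (adjusted p = 0.001). Cry2, which encodes the other cryptochrome, fell by 0.33 (adjusted p = 0.00774). The call of Cry2 was lost after rescaling to equal totals (0.061).

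Between genotypes 6 of the 14 were called, 4 higher and 2 lower, against 25.3% of all genes (60.7% after rescaling to equal totals, mostly higher), with a median of 0.08. Bhlhe41, which encodes a repressor closely related to BHLHE40, was at 16.1 to 42.6 in control mice and 60.6 to 122 in mice labelled MED13-LKO, without overlap, and was higher by 1.83 (SE 0.264, 3.57-fold, adjusted p = 0.000899 from limma). Timeless was higher by 0.64 (adjusted p = 0.00739). Btrc and Fbxw11, which encode ubiquitin ligase subunits that act on period proteins, were higher by 0.29 and 0.18 (adjusted p = 0.0394 and 0.0479). Btrc kept its call without sucrose control replicate 1, fructose control replicate 2 or fasted MED13-LKO replicate 2 only. Fbxw11 kept it without fasted control replicate 1 or fructose MED13-LKO replicate 1 only. Without any other mouse the adjusted p reached up to 0.103 for Btrc and 0.124 for Fbxw11.

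Tef, which encodes a relative of DBP, and Per3 were the 2 lower genes, at -0.35 and -0.28 (adjusted p = 0.0124 and 0.0233 from limma). Rescaling to equal totals ended both calls, and Per3 turned to 0.03. Per3 also lost its call without fasted control replicate 1, sucrose control replicate 1, fasted MED13-LKO replicate 1, sucrose MED13-LKO replicate 2 or fructose MED13-LKO replicate 2 (adjusted p = 0.056 to 0.0653). In the interaction, limma called 0 of the 14, and 3 had an unadjusted p under 0.05.

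**Figure D3:**
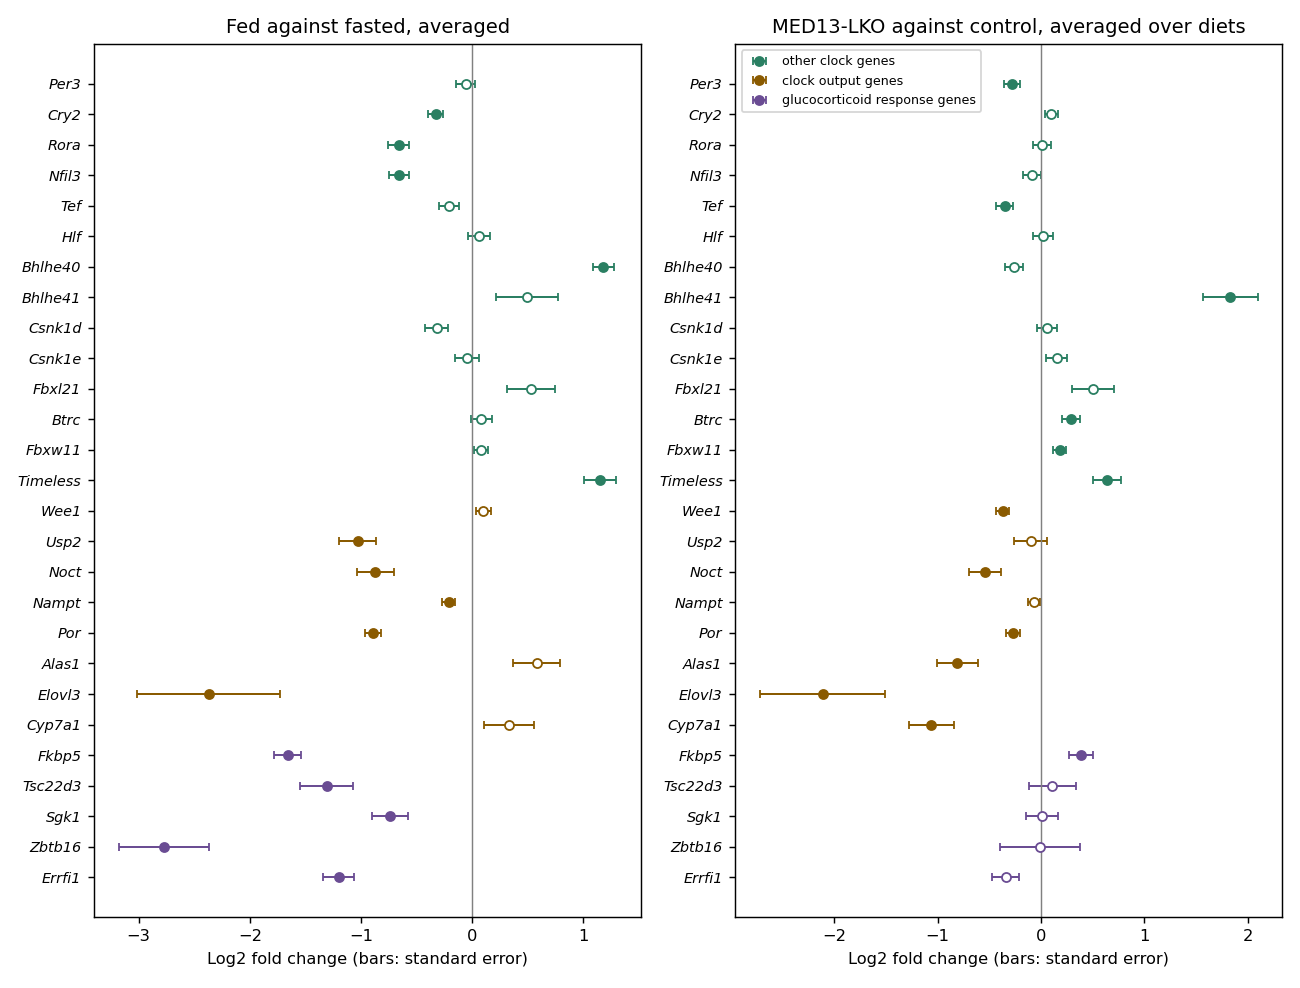
Log2 fold changes with standard errors of 14 other clock genes, 8 clock output genes and 5 glucocorticoid response genes, for fed against fasted mice (left) and for mice labelled MED13-LKO against control (right). Filled symbols passed an adjusted p of 0.05. All 5 glucocorticoid response genes lie left of 0 with feeding, and Bhlhe41 is the gene farthest to the right between genotypes, while Per3 and Por, left of 0 here, move to 0.03 and 0.05 when libraries are rescaled to equal totals.

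A list of 8 genes known as rhythmic outputs of the liver clock was also described. With feeding 5 of the 8 were called, all lower, against 21.8% of all genes called and 11% called lower: Elovl3 (-2.37), Usp2 (-1.03), Por (-0.89), Noct (-0.87) and Nampt (-0.21 on the log2 scale; adjusted p from limma 0.0256, 0.00241, 4.77e-05, 0.00473 and 0.0284). Por, the electron donor of the cytochromes P450, was at 11401 to 13758 in fasted mice and 5227 to 9193 in fed mice, without overlap. Elovl3, a fatty acid elongase, was listed at 0 in fructose MED13-LKO replicate 2 and lost its call with a pseudocount of 0.1 (0.0858) and without either fasted control mouse, sucrose control replicate 2, fasted MED13-LKO replicate 1 or sucrose MED13-LKO replicate 1 (0.0503 to 0.113). Nampt lost its call without fasted control replicate 2, sucrose control replicate 1, or any fasted or sucrose mouse labelled MED13-LKO (0.0511 to 0.139), and after rescaling to equal totals (0.213).

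Between genotypes 6 of the 8 output genes were called, all lower, against 25.3% of all genes called and 13.2% called lower. Cyp7a1, the rate-limiting enzyme of bile acid synthesis, was lower by -1.06 (SE 0.215, adjusted p = 0.0059 from limma), with 5326 to 11156 in control mice and 2489 to 7540 in mice labelled MED13-LKO. Alas1, the first enzyme of haem synthesis, was lower by -0.81 (adjusted p = 0.0155), Wee1, a cell cycle kinase, by -0.37 (0.00244) and Por by -0.27 (0.0145). Noct was lower by -0.54 (0.0279) and Elovl3 by -2.11 (0.0293), and each lost its call without any 1 of 6 mice. For Noct these were fasted control replicate 2, sucrose control replicate 2, fasted MED13-LKO replicate 1, either sucrose MED13-LKO mouse and fructose MED13-LKO replicate 2 (0.0507 to 0.0754). For Elovl3 they were either fasted control mouse, sucrose control replicate 1, fructose control replicate 2, fasted MED13-LKO replicate 2 and sucrose MED13-LKO replicate 1 (0.0519 to 0.0796), and its call was also lost with a pseudocount of 0.1 (0.0755). Rescaling to equal totals ended the calls of Alas1, Noct, Por and Wee1 and turned Por to 0.05. The falls were not alike in every diet. With sucrose, Elovl3 averaged 40.5 under the MED13-LKO label against 21.3 in control mice, and Noct 1066 against 1042. When fasted, they averaged 42.5 against 330 and 1471 against 2772, and with fructose 6.4 against 55.7 and 892 against 1598. Alas1 averaged 5650 against 7974 fasted, 10822 against 11742 with sucrose and 5039 against 17515 with fructose. Wee1 averaged 595 against 575 when fasted. In the interaction limma called 0 of the 8, and 2 had an unadjusted p under 0.05.

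Because Per1 carries a glucocorticoid response, 5 glucocorticoid response genes were set beside it. All 5 were called lower in fed mice, against 11% of all genes: Zbtb16 (-2.77), Fkbp5 (-1.66), Tsc22d3 (-1.31), Errfi1 (-1.20) and Sgk1 (-0.74; adjusted p from limma 0.00137, 4.38e-05, 0.00414, 0.000362 and 0.0115). Fkbp5, a chaperone of the glucocorticoid receptor, was at 2922 to 5456 in fasted mice and 944 to 1673 in fed mice, without overlap. The call of Sgk1 was lost without fasted control replicate 2 (0.0577) or fasted MED13-LKO replicate 2 (0.0565). Between genotypes 1 of the 5 was called, against 25.3% of all genes: Fkbp5, higher by 0.39 (adjusted p = 0.0348). That call held without fasted MED13-LKO replicate 2 or either fructose MED13-LKO mouse, and was lost without any other (up to 0.0894). In the interaction limma called 0 of the 5, and 0 had an unadjusted p under 0.05. The part of glucocorticoids in the fall of Per1 was not tested.

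Some of the clock genes share sequence with other genes, and reads there can be split between them. On GRCm38, Dbp (chr7:45705088-45710203, plus strand) overlaps Sphk2 on the opposite strand, and 16.9% of its 31-base subsequences occur there. Sphk2 did not follow Dbp: it differed by 0.02 with feeding (adjusted p = 0.906 from limma) and was higher by 0.24 in libraries labelled MED13-LKO (adjusted p = 0.0313). Nr1d1 (chr11:98767932-98775333, minus strand) shares 7.85% with Thra on the opposite strand, which differed by 0.29 with feeding (adjusted p = 0.0756) and by 0.13 between genotypes (adjusted p = 0.379). Ciart (chr3:95878503-95882251, minus strand) shares 20.8% with Gm9176, and Nr1d2 (chr14:18204054-18239127, minus strand) 9.51% with AC170187.1, for which no values are analysed here. The other 6 genes shared under 0.1% of their subsequences with any gene. In the related lists the largest shares were those of Noct (39%, 25.8% with Gm42860) and Bhlhe41 (17.7%, 17.5% with Gm43909).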

How the data were processed

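Liver RNA of 12 mice was measured by RNA-seq, and groups were taken from the sample titles. The authors deposited 1 table of signal values, which are normalized counts of 16346 genes in each library. The submitters' processing notes name Trim Galore 0.6.5, kallisto 0.46.0, DESeq2 1.24.0 and the build mm10, and the transcript reference was not given in the sources used here. Because kallisto estimates counts and splits reads between transcripts, only 37.6% to 54% of the values under 20 fell on multiples of the step of their library (within 0.02 of a read), or 66.1% to 95.8% in 2652 genes with a single transcript. Whole reads were therefore not recovered and no count test was run. Precision was set by the number of mice.

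Log2(normalized count + 1) of the 12366 genes that averaged 10 or more was fitted with 6 group means in limma 3.58.1 (R 4.3.3; empirical Bayes with trend), with Benjamini-Hochberg adjustment over all genes tested and calls under 0.05. The script was tested on simulated data. P-values measure the spread between 2 mice per group, pooled over groups. Alternatives were pseudocounts of 0.1 and 10, no filter, rescaling to equal totals or equal 75th percentiles, a block for replicate number, the compared groups alone, and omission of each mouse.

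The clock genes, the related lists and the markers were chosen with earlier results of these data known. Some of the other clock genes are left out and are not reported here. Of the 3 related lists all remaining members were counted and those called in an averaged contrast were named. The 5 genes most like Arntl and Dbp were taken by correlation. Identifiers were matched to GENCODE M21 (16212 of 16346), and positions, exon overlaps and shared 31-base subsequences come from it. Promoters are from RefSeq on GRCm38.p6. Python 3.11.15, NumPy 2.4.6 and matplotlib 3.10.9 were used.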

Additional observations from a re-analysis of the deposited data

Results flagged for a closer look

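Several genes differed between the genotypes in opposite directions in different diets, with both mice of each group on their side. Reversals were looked for only among the clock genes and the related lists, and their share over all genes tested was not counted. They are therefore given as a description. Between genotypes, Cry1, Nfil3 and Csnk1d were called by limma in none of the 3 diets. No interaction was fitted for a single sugar. The interaction averaged over sugars called none of the genes named below by limma. An average over sugars does not test a reversal seen with sucrose alone, as for Cry1, Csnk1d, Btrc and Fbxw11. Each comparison rests on 2 mice against 2.

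Cry1 averaged 612 normalized counts in libraries labelled MED13-LKO against 470 in control when fasted and 579 against 457 with fructose, but 430 against 527 with sucrose (interaction -0.35, adjusted p = 0.557). Nfil3 averaged 594 against 458 when fasted, but 281 against 330 with sucrose and 315 against 412 with fructose (interaction -0.69, adjusted p = 0.279). Csnk1d, a kinase of the period proteins, averaged 1507 against 1175 when fasted and 945 against 1108 with sucrose (interaction -0.50, adjusted p = 0.49).

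With sucrose, 3 genes also moved in opposite directions from the fasted mice in the 2 genotypes. Of these sucrose changes only the rise of Wee1 in control mice was called. Btrc in control mice was at 169 and 132 with sucrose against 175 and 170 fasted, a narrow margin. Wee1 averaged 842 with sucrose and 694 with fructose against 575 fasted in control mice, and 547 and 482 against 595 in mice labelled MED13-LKO (interaction -0.62, adjusted p = 0.195). Between genotypes Wee1 was at 595 against 575 fasted and was called lower with sucrose (-0.62, adjusted p = 0.0104) and fructose (-0.53, 0.0184), and it was called higher with sucrose against fasted in control mice (0.55, 0.0149). These calls were lost without sucrose control replicate 1 or either sucrose MED13-LKO mouse, without fructose control replicate 2 or fructose MED13-LKO replicate 2, and without either fasted control mouse or sucrose control replicate 1, in that order, with adjusted p from 0.0661 to 0.131. Rescaling to equal totals ended the calls between genotypes (0.0875 and 0.23). Btrc averaged 150 with sucrose against 172 fasted in control mice and 225 against 177 in mice labelled MED13-LKO (interaction 0.38, adjusted p = 0.57). Fbxw11 averaged 567 against 651 in control mice and 802 against 692 in mice labelled MED13-LKO (interaction 0.14, adjusted p = 0.767). Between genotypes Fbxw11 was called higher with sucrose (0.50, adjusted p = 0.0217), a call lost without any 1 of the 4 sucrose mice (0.0776 to 0.16).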

How the results depend on the processing

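The number of clock genes called in the averaged comparisons held within 1.5 times under each alternative, but not which genes. Between genotypes, equal totals called 4 higher and 1 lower in place of 0 higher and 4 lower. Nr1d1 alone was called on both of these scales. Equal 75th percentiles kept the genotype calls of Nr1d1, Ciart and Dbp, and Nr1d2 lost its call there. Leaving out 1 mouse gave 5 to 6 genes for feeding, 3 to 5 for genotype, and 0 each time for the interaction and for fructose against sucrose. Single comparisons of 2 mice against 2 were less stable under the same omission. They gave 0 to 4 genes for sucrose in control mice, 0 to 3 for fructose in control mice, 0 to 2 for sucrose and 0 to 5 for fructose in mice labelled MED13-LKO, and 0 to 1, 0 to 2 and 0 to 2 between genotypes in fasted, sucrose-fed and fructose-fed mice. Omitting 1 of a pair leaves a lone mouse that is assumed to vary like the other groups. The 5 genes for fructose in mice labelled MED13-LKO came without fructose MED13-LKO replicate 1, and 4 came without either fructose control mouse. The 0 to 2 for sucrose there had 0 without sucrose MED13-LKO replicate 2 and 2 without any 1 of the 4 fructose mice. Between genotypes, the 1 in fasted mice came without fasted MED13-LKO replicate 1 or either fructose MED13-LKO mouse, the 2 with sucrose without either fructose MED13-LKO mouse, and the 2 with fructose without fructose MED13-LKO replicate 1. Fitting the compared groups alone gave 0 for fructose in control mice, 2 for sucrose in mice labelled MED13-LKO, and 1, 1 and 0 between genotypes in fasted, sucrose-fed and fructose-fed mice. Equal totals gave 1 for fructose in control mice and 2 between fasted genotypes, a pseudocount of 10 gave 3 for fructose in mice labelled MED13-LKO, and no filter gave 0 between fructose-fed genotypes. Between genotypes, equal totals reversed Nr1d2 to 0.10, Per3 to 0.03 and Por to 0.05. Over single genes called among the clock genes and the related lists, 299 values lost their call and 3 reversed. The 1377 values that stayed the same include the E-box count and the count of most alike genes. The cause of these shifts was not tested.

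No source ties equal replicate numbers to shared litters or handling. Over 15 pairs of groups the deviations of same-numbered mice correlated at -0.142 to 0.0782 (median 0.0273), and 0 exceeded 0.1. With the replicate number as a block, 6 clock genes were called for feeding, 3 between genotypes and 1 for fructose in control mice. With numbers crossed in fructose-fed mice labelled MED13-LKO, a pairing chosen after the data were seen, 0 were called between fructose-fed genotypes, against 1 with the numbers as labelled.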
